A study of Arabidopsis thaliana with 8 samples.

Results

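The comparison of Arabidopsis thaliana embryos from the cross Q0990 x bdl with embryos from the cross Q0990 x Col-0, both isolated 3 days after pollination, rested on 4 of the 8 arrays of the series. All arrays with the day 3 title were taken, and on each one the signal of Q0990 x bdl was set over that of Q0990 x Col-0. Q0990, a line of ecotype Col-0, was the seed parent of both crosses, so both carry its chromosomes and differ in the pollen parent, which was bdl in one cross and Col-0 in the other. Q0990 is known as an enhancer trap line with a GAL4 transgene, and the labels say of the pollen parent only that it is the line bdl. RNA of isolated embryos was amplified, coupled to Cy5 or Cy3 and hybridised to arrays of long oligonucleotide reporters with both crosses on the same array. The labels name 4 biological replicates for each day, numbered 1 to 4, and nothing in them says which embryos or plants went into each. The other 4 arrays hold the same crosses at day 6 and enter here only where day 3 was set against them. Of 24648 genes with a reporter, 19095 passed a filter on low signals and had a value on all 4 day 3 arrays. Each of these was tested. The filter asked for signal above the blank spots in at least 4 of the 16 signals of both days, so a tested gene may be dim on day 3.

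BODENLOS (BDL, also IAA12) is an Aux/IAA protein, and its partner is the auxin response factor MONOPTEROS (MP, also ARF5), which it holds inactive. Auxin makes the TIR1/AFB receptor complex mark Aux/IAA proteins for degradation, which releases MP to switch on its targets, and the bdl mutation stabilises the repressor. MP and its targets set up the embryonic root, the vascular tissue and the cotyledons, and embryos without MP function lack a root.

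The 4 day 3 arrays had median intensities of 341 to 524 for Q0990 x bdl and 336 to 521 for Q0990 x Col-0, in the scanner's arbitrary units. The 95th percentile of the 1743 blank spots per array lay between 27.4 and 87.5. Ratios below are the log2 of the Q0990 x bdl intensity divided by that of Q0990 x Col-0, after 50 was added to both and the array was normalised by loess. The addition makes ratios of dim genes smaller than those of the intensities themselves. Genes counted as called had an adjusted p under 0.05 (limma, Benjamini-Hochberg over all genes tested), and errors are SD over the 4 arrays. The number of arrays limits the precision of each value. Counts for gene lists cover the members that passed the filter on low signals, and dimmer members were not tested. Each count is to be set against the shares of all tested genes, 21.1% called higher and 21% called lower.

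The 4 arrays fell into pairs. Across the tested genes the ratios correlated at 0.779 between replicates 1 and 3 and at 0.749 between replicates 2 and 4, but at 0.575 to 0.632 in the other pairings. Deviations from the mean ratio correlated at 0.144 within the pair of replicates 1 and 3 and at 0.0166 within that of replicates 2 and 4, against -0.587 to -0.477 across the pairs. The dyes as labelled do not follow this split, since Q0990 x bdl was in Cy5 on replicates 1 and 2 and in Cy3 on replicates 3 and 4. These correlations run across genes, which are not independent replicates. The 4 deviations of a gene cancel by construction, so negative values among them are partly forced. Only their difference between pairings describes the arrays. What the pairs share was not tested. A split of this kind also linked the day 3 arrays to those of day 6, as given below. If each pair shares an RNA sample, the arrays hold fewer independent samples than their number and the p-values below are too small.

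**Figure D1:**
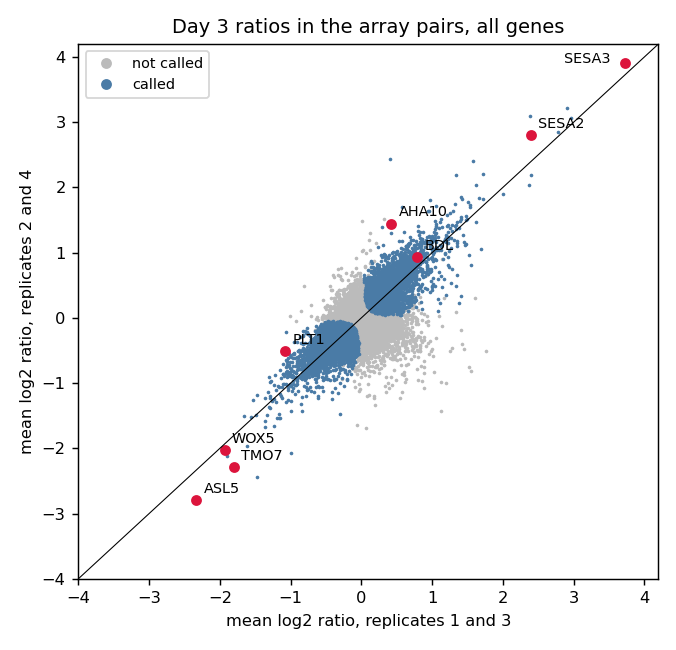
Each point is one of the 19095 tested genes, with its mean log2 ratio of Q0990 x bdl to Q0990 x Col-0 on replicates 1 and 3 on the x axis and on replicates 2 and 4 on the y axis, where blue points were called, grey points were not, and the line marks equal values. SESA3, SESA2, BDL, WOX5, TMO7 and ASL5 lie near the line, while AHA10 and PLT1, which each have 1 deviating array, lie off it.

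Most differences on day 3 were small and were split evenly. Of the tested genes 8036 were called, which is 42.1% of them, with 4032 (21.1%) higher and 4004 (21%) lower in Q0990 x bdl. The median absolute log2 ratio of the called genes was 0.33, and 7779 of them had the same sign on all 4 arrays. At 1.5-fold or more, 713 genes (3.73%) were called higher and 544 (2.85%) lower, and at 2-fold or more 139 (0.728%) were higher and 62 (0.325%) lower. The median ratio over all tested genes was 0.00255. The loess normalisation centres the ratios of each array, so this median and the even split are largely set by the processing. With replicates 1 and 3 and replicates 2 and 4 averaged first, which leaves 1 value for each pair, 4635 genes were called.

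Embryo markers were lower and markers of the surrounding seed tissues higher in Q0990 x bdl. Of 15 embryo markers tested, 13 were called lower and none higher, with a median log2 ratio of -0.71. Many of them are also named below among auxin, root pole and boundary genes, such as TMO7, PIN7, SCR, WOX5, CUC1 and STM. The marker count and the results for those genes below are therefore not independent. ATML1, a homeodomain gene of the protoderm, stood at 0.06 (adjusted p = 0.323) and the vascular gene TMO5 at -0.08 (adjusted p = 0.280). All but 1 of the 15 were above the blank spots on every array in Q0990 x Col-0, so embryo RNA was detected in that cross. Of 9 endosperm markers, 8 were called higher with a median of 0.71, and the exception was FIS2, a Polycomb gene, at -0.24 (adjusted p = 0.0564). Of 17 seed coat markers, 12 were called higher and none lower, with a median of 0.48.

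Markers of the other tissues were detected in both crosses. In Q0990 x bdl 9 endosperm and 15 seed coat markers exceeded the blank spots on all 4 arrays, as did 6 endosperm and 13 seed coat markers in Q0990 x Col-0. Over the longer list of 14 endosperm genes the summed intensity in Q0990 x bdl was 1.60, 1.58, 1.57 and 1.35 times that in Q0990 x Col-0 on replicates 1 to 4. Over 22 seed coat genes it was 1.34, 1.71, 1.38 and 1.64 times. The suspensor gene WOX8 was lower (log2 -0.36), but SSP, the other suspensor marker tested, stood at 0.13 (limma adjusted p = 0.109). Of 5 suspensor and zygote genes 1 was called lower and none higher (2 lower and 1 higher without replicate 3), with a median of 0.10. The pollen gene VGD1 stood at 0.23 (limma adjusted p = 0.114). In RNA of whole samples, fewer cells of a type and less RNA per cell cannot be told apart, and the part that the seed tissues play in the results below was not tested.

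**Figure D2:**
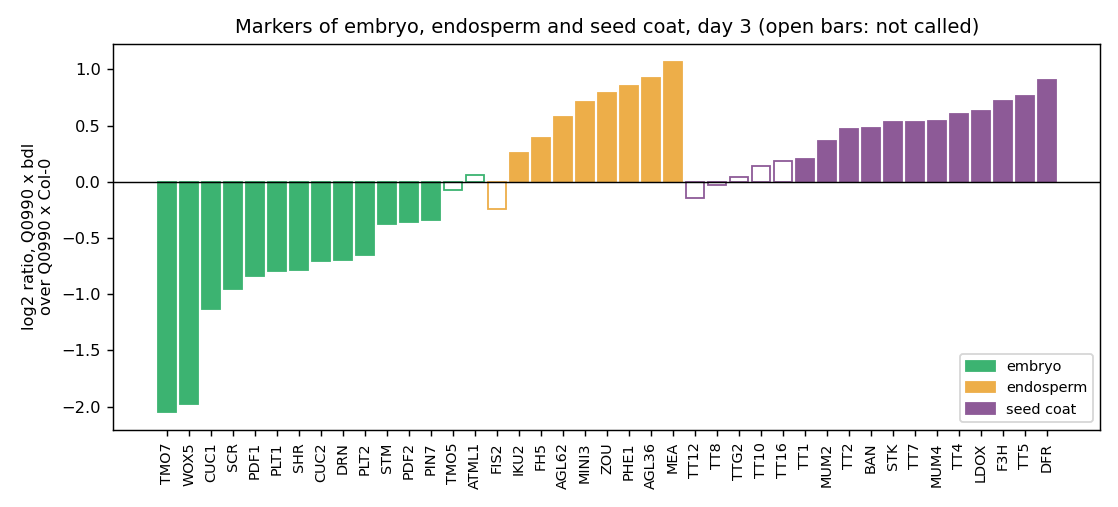
Bars give the mean log2 ratio of Q0990 x bdl to Q0990 x Col-0 on the 4 day 3 arrays (y axis) for each tested marker of embryo, endosperm and seed coat (x axis); filled bars were called and open bars were not. All filled embryo bars point down, to -2.05 for TMO7, and all filled endosperm and seed coat bars point up, to 1.07 for MEA and 0.91 for DFR.

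BDL itself was measured at 1789, 5149, 3888 and 5657 in Q0990 x bdl on replicates 1 to 4, against 822, 2083, 1675 and 2211 in Q0990 x Col-0. Q0990 x bdl was the higher channel on every array, although its lowest value, on replicate 1, lay below the Q0990 x Col-0 values of replicates 2 and 4. The log2 ratio was 0.86 ± 0.0946, which is 1.82-fold higher (95% interval 0.73 to 0.99, limma adjusted p = 2.70e-05). This is the mean of 3 BDL reporters, whose own ratios ran from 0.16 to 1.34, and with only reporters above the blank spots in every day 3 signal it was 1.21 (limma adjusted p = 5.47e-06). Whether these reporters separate a mutant from a wild-type transcript is not given in the sources used here. MP was measured at 7313, 4044, 11988 and 13182 in Q0990 x bdl, against 10988, 5408, 19754 and 15286 in Q0990 x Col-0. It was lower on all 4 arrays but by unequal amounts, with log2 ratios of -0.57, -0.42, -0.71 and -0.21. On average it fell 1.39-fold (log2 -0.48 ± 0.212, limma adjusted p = 0.00299).

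Within a window of 40 tested genes around BDL on chromosome 1, none rose as far as BDL. The 40 tested genes with the nearest codes, 20 on each side from AT1G04310 to AT1G04760, had a median log2 ratio of 0.05 and a range of -0.87 to 0.50. Of these 6 were called higher and 10 lower, so that 40% were called against 42.1% of all genes. IAA3, another Aux/IAA gene, has a code just outside this window and stood at 0.88, against 0.86 for BDL. It is described below. By chromosome of the gene code, 40.2% (chromosome 5) to 43.8% (chromosome 4) of genes were called, and between 6.01% and 7.26% reached 1.5-fold.

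The genes that fell most in Q0990 x bdl included ASL5, TMO7, WOX5 and LOG7. ASL5, a LATERAL ORGAN BOUNDARIES domain gene, had intensities of 125, 212, 231 and 217 in Q0990 x bdl, against 724, 2070, 1550 and 1566 in Q0990 x Col-0. The groups did not overlap, and the log2 ratio was -2.56 ± 0.352 (5.92-fold lower, limma adjusted p = 9.98e-05). TMO7, a small bHLH gene that MP activates and whose protein moves to the future root tip, had 63.8, 4.69, 37.7 and 32.9 in Q0990 x bdl, against 306, 224, 289.5 and 348 in Q0990 x Col-0. It was above the blank spots on 1 of 4 arrays in Q0990 x bdl and on all 4 in Q0990 x Col-0, and its log2 ratio was -2.05 ± 0.312. WOX5, the homeobox gene of the root quiescent centre, had 124, 33.1, 203 and 264 in Q0990 x bdl, against 551, 323, 1010 and 1118 in Q0990 x Col-0. The groups were again separate (log2 -1.98 ± 0.170, 3.94-fold lower, limma adjusted p = 5.80e-06).

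LOG7, which encodes an enzyme that releases active cytokinin, had 270.0, 506, 625 and 1028 in Q0990 x bdl, against 862, 1253, 1946 and 2577 in Q0990 x Col-0. The highest Q0990 x bdl value, on replicate 4, exceeded the lowest Q0990 x Col-0 value, on replicate 1, but each array on its own had LOG7 lower (log2 -1.40 ± 0.166). GRF5, a growth-regulating factor that promotes leaf cell proliferation, was lower by similar amounts on all arrays, with log2 ratios of -1.36, -1.54, -1.31 and -1.44. RGF8, a gene for a root growth factor peptide, had 88.3, 82.8, 127 and 97.4 in Q0990 x bdl, against 408, 287, 477 and 422 in Q0990 x Col-0. Its log2 ratio was -1.58 ± 0.173 (2.99-fold lower, limma adjusted p = 3.52e-05).

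Several of the other large falls belonged to genes that the array annotates only in part. AT1G05577, a hypothetical protein gene there, had 15.9, 60.8, 53.8 and 56.0 in Q0990 x bdl, against 172, 361, 382 and 497 in Q0990 x Col-0 (log2 -2.01 ± 0.263). It exceeded the blank spots on 2 of 4 arrays in Q0990 x bdl and on all 4 in Q0990 x Col-0. AT1G29270, an expressed protein gene, followed the array pairs, with log2 ratios of -1.24 and -1.71 on replicates 1 and 3 but -2.57 and -2.31 on replicates 2 and 4. ZW9, with a MATH domain (-1.79), SAG13, a putative tropinone reductase (-1.54), AT5G47440 (-1.52), the copper-binding family gene AT3G48970 (-1.49), PUB25, a U-box gene (-1.47), and AT3G17680 (-1.44) were also lower on every array. AT1G16220, of the protein phosphatase 2C family, averaged -1.54 ± 1.002, but replicate 4 alone stood at -3.04 while the others lay between -1.11 and -0.96.

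The genes that rose most were led by seed storage albumin genes. SESA3, a 2S albumin gene, had intensities of 3465, 3482, 4859 and 4566 in Q0990 x bdl, against 253, 172, 276 and 279 in Q0990 x Col-0. No value of one cross came near the other (log2 3.82 ± 0.202, 14.1-fold higher, limma adjusted p = 3.36e-07). SESA2, another 2S albumin gene, had 643, 809, 1036 and 1017 in Q0990 x bdl, against 108, 55.0, 119.5 and 132 in Q0990 x Col-0 (log2 2.60 ± 0.379). The albumin gene SESA4 was higher by less (log2 0.86 ± 0.101), and the globulin gene CRU3 stood at 0.50 ± 0.149. Reporters of these close paralogs may share signal. The rise of CRU3 depended on its reporters: where only reporters that exceeded the blank spots in every day 3 signal were kept, its ratio was -0.072 (adjusted p = 0.267).

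A run of neighbouring codes on chromosome 1 held 5 of the 15 largest rises. Among the 23 tested genes from AT1G61960 to AT1G62250, a window chosen after the values were seen, AT1G62080 stood at 3.06, AT1G62000 at 3.01, AT1G62210 at 2.82, AT1G62060 at 2.295 and AT1G62220 at 1.99. The array annotates each only as an expressed protein. AT1G62000 had 5497, 12830, 7574 and 8805 in Q0990 x bdl, against 801, 1308, 766 and 1125 in Q0990 x Col-0. Of the tested genes lying between them, AT1G62030 (0.64), AT1G62020 (0.35) and AT1G62110 (0.18) were higher by less. APR2 (-0.62), AT1G62050 (-0.34) and PTR6 (-0.30) were lower, and the others did not pass, such as AT1G62010 at 0.02 and ATG8C at -0.13. AT1G62220 followed the array pairs, with 1.47 and 1.70 on replicates 1 and 3 but 2.45 and 2.36 on replicates 2 and 4. Cross-hybridisation between members of one family cannot be told apart from a rise of each.

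Other large rises came from several families. AT1G53285, an expressed protein gene, had 7880, 4362, 10069 and 9007 in Q0990 x bdl, against 1510, 1078, 1878 and 2027 in Q0990 x Col-0 (log2 2.204 ± 0.203). PER64, a class III peroxidase known from lignin formation in the root endodermis, had 955, 1051, 2078 and 2139 in Q0990 x bdl, against 264, 272, 576 and 557 in Q0990 x Col-0. Its ratio varied little between arrays (log2 1.77 ± 0.0737). AT4G22440, a hypothetical protein gene, averaged 2.74 ± 0.595 with 3.53 on replicate 2. AT1G43667 of the lipid transfer protein family (1.96), AT1G52695 of a carboxylesterase family (1.95), the F-box gene AT3G17265 (1.83), AT5G05030 (1.76) and MEE56 (1.75) were higher on all 4 arrays, although AT3G17265 exceeded the blank spots on 2 of 4 arrays in Q0990 x Col-0. MEE56 was named from a maternal effect embryo arrest mutant. None of these 30 genes lost its call or changed direction under any processing alternative tried.

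**Figure D3:**
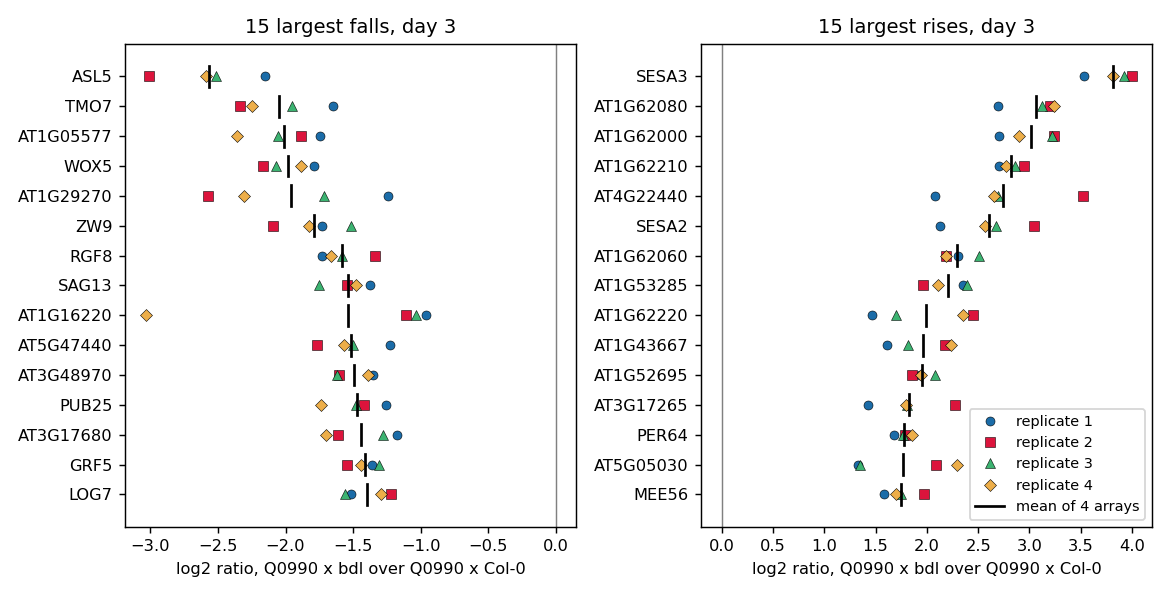
Points give the log2 ratio of Q0990 x bdl to Q0990 x Col-0 (x axis) on each of the 4 day 3 arrays for the 15 genes that fell most (left) and the 15 that rose most (right), and the black bars are means. AT1G16220 stands out for replicate 4 at -3.04, and SESA3 lies highest, between 3.53 and 3.999.

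Genes that MP is known to activate, or that act in vascular initiation, were lower in Q0990 x bdl or did not pass the test. Of 17 genes listed, 16 had a reporter and 14 passed the filter on low signals. Of these 14, 10 (71.4%) were called lower and none higher, against 21% lower among all genes. The list median was -0.63, against 0.00255 over all genes. The list was drawn up with results of these arrays known, so its count is no independent evidence of direction. LOG3, another cytokinin-releasing enzyme gene, had 167, 284, 261 and 275 in Q0990 x bdl, against 427, 755, 813 and 866 in Q0990 x Col-0. The groups did not overlap (log2 -1.34 ± 0.170, 2.53-fold lower, limma adjusted p = 8.36e-06). LOG4, which acts in the same reaction, was at -0.92 ± 0.106.

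Transcription factor and scaffold genes of the list fell by smaller amounts. IQD18, of a family of calmodulin-binding scaffold proteins at microtubules, stood at -0.80, -0.89, -0.98 and -0.94 on replicates 1 to 4. DRN and DRNL, AP2 factor genes that act in cotyledon formation, were at -0.69 ± 0.128 and -0.65 ± 0.128. TMO3 was at -0.62 ± 0.0655, GATA20 at -0.69 ± 0.261 (above the blank spots on 2 of 4 arrays in Q0990 x bdl) and TMO6, a Dof factor gene, at -0.29 ± 0.123. LHW, whose protein pairs with TMO5 in vascular cell divisions, fell by 0.53 on the log2 scale with little spread (SD 0.0417). Its partner TMO5 did not pass, with log2 ratios of -0.01, -0.08, -0.08 and -0.13 (limma adjusted p = 0.280). Neither did the TMO5 relative T5L1 (-0.11, adjusted p = 0.686), the vascular HD-ZIP III gene ATHB8 (-0.16, adjusted p = 0.282, but -0.29 and 0.0481 without replicate 3) or the Dof gene DOF6 (-0.01, adjusted p = 0.916), which exceeded the blank spots on 1 of 4 arrays in each cross.

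**Figure D4:**
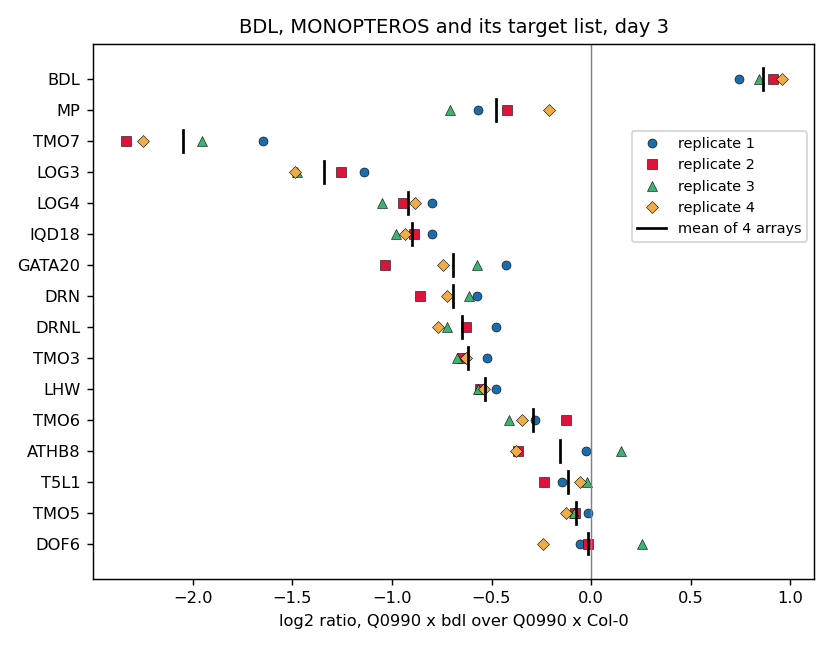
Points give the log2 ratio of Q0990 x bdl to Q0990 x Col-0 (x axis) on each of the 4 day 3 arrays for BDL, MP and the 14 tested members of the MP target list, and the black bars are means. BDL lies above 0 on all arrays, the 10 members called lower and MP lie below 0 on all arrays, and ATHB8 and DOF6 straddle 0.

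Auxin transport genes were mostly lower. Of 12 carrier genes, 7 were called lower and 1 higher (median -0.23). That is 58.3% lower and 8.33% higher, against 21% and 21.1% of all genes. LAX2, an influx carrier gene of vascular tissue, had 773, 29.4, 648 and 471 in Q0990 x bdl, against 1503, 121, 1762 and 1977 in Q0990 x Col-0. Both signals were far lower on replicate 2 than elsewhere, and the log2 ratio was -1.34 ± 0.449. The efflux carrier gene PIN4 was at -0.85 ± 0.240, a mean of 3 reporters that ran from -1.97 to -0.26. PIN7 was at -0.34 ± 0.0348 and the influx carrier genes AUX1 at -0.63 ± 0.0327 and LAX1 at -0.55 ± 0.0738. ABCB1, an efflux transporter gene of another family, was the one that rose (log2 0.40 ± 0.0376). Among 8 synthesis genes 4 (50%) were lower and 3 (37.5%) higher. TAA1, the aminotransferase gene of the first step, had 879.7, 960.4, 951 and 359 in Q0990 x bdl, against 1909, 1779, 2024 and 1322 in Q0990 x Col-0 (log2 -1.18 ± 0.385). The flavin monooxygenase gene YUC4 was at -0.77, while YUC10, an endosperm-expressed relative, rose by 0.74 and TAR1, a TAA1 relative, by 0.51.

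Receptor and corepressor genes changed little. Of 14 receptor and SCF subunit genes 2 were higher and 2 lower, so that 28.6% were called against 42.1% of all genes. The receptor genes AFB2 and TIR1 were at -0.40 and -0.28, the cullin gene CUL1 at 0.23 and the subunit activator gene ECR1 at 0.15. ECR1 lost its call without any 1 of the 4 replicates (adjusted p 0.0556 to 0.150). Of 5 TOPLESS corepressor genes 3 (60%) were higher, by 0.21 to 0.36, against 21.1% higher among all genes. TPR4 (0.21) lost its call without replicate 1 or 3 (adjusted p = 0.0929 and 0.0694), and TPL itself stood at -0.11 (adjusted p = 0.202).

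Aux/IAA and response factor genes moved in both directions. Of 20 Aux/IAA genes other than BDL, 9 were called higher and 3 lower (median 0.07). IAA30 had 308, 380.3, 580.5 and 396 in Q0990 x bdl, against 689.9, 857, 1446 and 1030 in Q0990 x Col-0, and the groups did not overlap (log2 -1.16 ± 0.116). IAA19, an auxin-induced member, was at -1.05 ± 0.350. IAA3 had 391, 379, 539 and 364 in Q0990 x bdl, against 149, 215, 205 and 250.2 in Q0990 x Col-0 (log2 0.88 ± 0.349), with the larger ratios, 1.14 and 1.20, on replicates 1 and 3. IAA16 was at 0.84 ± 0.158, with the larger ratios, 1.002 and 0.947, on replicates 2 and 4. Of 22 auxin response factor genes 10 were higher and 7 lower. ARF20, ARF12, ARF21 and ARF14 lay between 0.82 and 0.95, and reporters of these close paralogs may not separate them. ARF6, an activating factor, was at -0.65 ± 0.139.

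Families that auxin is known to induce early were split. Of 46 SAUR genes 18 were called higher and 5 lower (median 0.07). AT4G34780 stood at 1.15, 1.11, 1.31 and 1.38 on replicates 1 to 4 and SAUR63 at 0.98 ± 0.350, while SAUR15 was lower (-0.31 ± 0.0910). Of 7 GH3 genes, which encode enzymes that attach amino acids to auxin, 2 were lower and none higher (1 higher without replicate 1 or 4). That is 28.6% lower, against 21% of all genes. GH3.2 had 117, 199, 201 and 190.2 in Q0990 x bdl, against 257, 464, 425 and 388 in Q0990 x Col-0 (log2 -0.92 ± 0.0787). Among 29 LBD genes 8 (27.6%) were higher and 5 (17.2%) lower, near the 21.1% and 21% of all genes. LBD35 was at 0.87, LBD8 at 0.81 and LBD40 at -0.81, beside ASL5.

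Cytokinin genes other than the LOG genes changed by less. Of 12 synthesis and activation genes 5 were lower and 1 higher. This list includes LOG7, its lowest member (-1.40), and 3 of its members were called at 1.5-fold or more lower. These are therefore not counts of the other cytokinin genes alone. IPT4, a gene of the first committed step, was the one that rose (0.46 ± 0.225). Of 8 type-A response regulators, which cytokinin induces and which dampen its signal, 3 were lower and 1 higher: ARR3 was at -0.77 ± 0.158, ARR4 at -0.47, ARR16 at -0.38 and ARR9 at 0.18. ARR9 was not called once any 1 replicate was left out (adjusted p 0.0930 to 0.138). Of 6 cytokinin oxidase genes 3 were lower, led by CKX5 (-0.47), and 2 higher, including CKX2 (0.35). CKX5 lost its call without replicate 1, 3 or 4 (adjusted p 0.0751 to 0.113). Without replicate 4, 1 was lower, and without replicate 2, 3 or 4, 1 was higher. In these small lists the shares called were 50% (synthesis and activation), 50% (type-A regulators) and 83.3% (oxidases), against 42.1% of all genes.

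Root pole genes were lower in 8 of 12 cases with none higher (median -0.53). SCR, a GRAS factor gene of the endodermis and stem cell niche, had 476, 609, 795 and 1256 in Q0990 x bdl, against 954, 1219, 1829 and 2189 in Q0990 x Col-0 (log2 -0.95 ± 0.151). Its partner gene SHR was at -0.79 ± 0.177 but exceeded the blank spots on 1 array in Q0990 x bdl and 3 in Q0990 x Col-0. PLT1, an AP2 factor gene of the root stem cells, was at -1.15, 0.089, -1.001 and -1.10, so replicate 2 went against its call (limma adjusted p = 0.0170). The call was lost without replicate 1, 3 or 4 (adjusted p 0.0654 to 0.0766). PLT2 was at -0.65 ± 0.241. In the WOX family as a whole, 4 of 9 were lower, including WOX12 (-0.40), and WOX13 was higher (0.35). These are 44.4% and 11.1%, against 21% and 21.1% of all genes.

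Shoot and cotyledon genes were lower as well. Of 9 boundary and KNOX genes 6 were lower and 2 higher (1 higher without replicate 1, none without replicate 4), with a median of -0.38. The boundary gene CUC1 had 948, 1495, 1620 and 1582 in Q0990 x bdl, against 1683, 3895, 2991 and 4561 in Q0990 x Col-0 (log2 -1.13 ± 0.353), with the larger falls on replicates 2 and 4. CUC2 was at -0.71 ± 0.138, the KNOX gene KNAT2 at -0.88 ± 0.106 and STM, which maintains the shoot meristem, at -0.38 ± 0.0994. ATH1, a BELL homeodomain gene, rose by 0.33, but without replicate 4 it did not pass (0.26, limma adjusted p = 0.0528). Of 6 YABBY, KANADI and polarity genes 4 were lower, among them KAN2 (-0.76 ± 0.176), and KAN3 was higher (0.28). FIL, a YABBY gene of the lower organ side, had 391, 297, 602 and 466 in Q0990 x bdl, against 806, 621, 1385 and 901 in Q0990 x Col-0. Of 8 HD-ZIP III genes and partners 3 were lower (5 without replicate 3) and none higher: PHB was at -0.91 ± 0.359 with replicate 2 at -0.37, PHV at -0.75 ± 0.0638 and ATHB-15 at -0.37. The 37.5% called, all of them lower, compare with 42.1% of all genes called and 21% called lower.

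Epidermal homeobox genes were called higher more often than lower. Of 14 HD-ZIP IV genes 8 were called higher (57.1%) and 1 lower (2 without replicate 3), with a median of 0.28. HDG2 had 1145, 2526, 2237 and 2922 in Q0990 x bdl, against 659, 1505, 1229 and 1549 in Q0990 x Col-0 (log2 0.80 ± 0.0750). FWA, which is imprinted and expressed in endosperm, was at 0.65 ± 0.116, HDG9 at 0.49 and ANL2 at 0.42. PDF2, which specifies the epidermis together with ATML1, was lower (-0.36 ± 0.0741), as was the epidermal protein gene PDF1 (-0.84 ± 0.162).

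Growth and cell division genes were lower by modest amounts. Of 11 growth-regulating factor and cofactor genes 7 were lower and none higher (1 without replicate 3), with a median of -0.31. AN3, the cofactor of GRF5, had 757, 1137, 1745 and 2049 in Q0990 x bdl, against 1808, 2837, 4632 and 4636 in Q0990 x Col-0 (log2 -1.26 ± 0.0962, 2.40-fold lower, limma adjusted p = 5.55e-06). The GRF genes, AT2G45480 and AT4G37740, were at -0.80 and -0.73. Of 33 replication genes 22 (66.7%) were lower and none higher (median -0.31). CDC45, which activates the replicative helicase, was at -0.79 ± 0.141, the helicase subunit gene MCM3 at -0.64 ± 0.214 and RPA70D, a single-strand binding protein gene, at -0.60.

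Cyclin, mitotic and histone genes showed the same direction. Lower were 6 of 8 A-type cyclin genes and 7 of 9 B-type cyclin genes, with none higher in either class. CYCA1;1 was at -0.81 ± 0.0468 and CYCB1;1 at -0.41 ± 0.126. D-type cyclin genes were mixed, 3 lower and 2 higher (1 without replicate 2) of 9, with CYCD3;1 at -0.61 ± 0.0570 and CYCD4;2 at 0.36. Their shares were 33.3% lower and 22.2% higher, against 21% and 21.1% of all genes. CYCD3;3 (-0.31) lost its call without replicate 2 or 4 (adjusted p = 0.145 and 0.142). Of 28 mitotic kinase and checkpoint genes 16 were lower and 1 higher (none without replicate 2 or 3), with the checkpoint gene BUBR1 at -0.81 ± 0.0770, the microtubule bundling protein gene MAP65-2 at -0.72 and the Aurora kinase gene AUR1 at -0.65. Of 45 histone genes 28 were lower and 1 higher (none without replicate 1, 2 or 4). HTA6, an H2A gene, had 952, 1278, 978 and 1307 in Q0990 x bdl, against 2059, 2086, 2034 and 2242 in Q0990 x Col-0 (log2 -0.89 ± 0.190). Of 51 kinesin genes 20 were lower, including AT3G10310 (-0.84), and 6 higher, including AT1G55550 (0.47). The 6 became 3 without replicate 2 or 4.

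Ribosomal protein genes were lower by less. Of 216 cytosolic ribosomal protein genes 89 (41.2%) were called lower and 4 higher (2 without replicate 2), but the median was -0.14 and 6 reached 1.5-fold lower. AT3G07110, a gene for protein L13A, was at -0.80 ± 0.126, and AT1G23410, a ubiquitin extension gene, at 0.32. Organellar ribosomal protein genes had a median of -0.01, with 13 of 47 lower (8 without replicate 3) and 7 higher (4 without replicate 1 or 3). Their shares were 27.7% lower and 14.9% higher, against 21% and 21.1% of all genes.

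Genes of photosynthesis were higher in Q0990 x bdl. Called higher were 11 of 12 photosystem I, 8 of 11 photosystem II and 14 of 18 light-harvesting genes, and none of these was lower. Their medians were 0.53, 0.41 and 0.44. Of 16 Calvin cycle genes 14 were higher (median 0.56), and TIM, a triose phosphate isomerase gene, was lower (-0.17), but not without replicate 2 or 4 (limma adjusted p = 0.152 and 0.148). RBCS2B, a Rubisco small subunit gene, had 5258, 5268, 9941 and 7906 in Q0990 x bdl, against 2096, 2303, 3764 and 3528 in Q0990 x Col-0. The values of both crosses were separate (log2 1.25 ± 0.124, 2.39-fold higher, limma adjusted p = 1.16e-05). The dehydrogenase gene GAPA was at 0.87 and RCA, for Rubisco activase, at 0.77. PSAO of photosystem I was at 0.82 ± 0.134 and PSBQA of photosystem II at 0.74 ± 0.284.

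Chlorophyll synthesis genes followed, with 12 of 15 higher and none lower (median 0.34). GUN5, a subunit gene of magnesium chelatase, was at 0.74 ± 0.192 and PORB, a protochlorophyllide reductase gene, at 0.61 ± 0.0605. Several members differed between the array pairs: GUN5 stood at 0.54 and 0.63 on replicates 1 and 3 and at 0.84 and 0.96 on replicates 2 and 4. Of the 18 light-harvesting genes, 8 were called higher with replicates 1 and 3 alone and 12 with replicates 2 and 4 alone, against 14 with all arrays. Each of these fits holds fewer day 3 arrays, so a lower count alone does not set the pairs apart. The list medians were 0.37 on replicates 1 and 3 and 0.47 on replicates 2 and 4. Of the ratios of sums given above, those of the seed coat genes were also larger on replicates 2 and 4, but those of the endosperm genes were not. The median log2 ratios were larger there in both lists. For the endosperm genes they were 0.61 and 0.54 on replicates 2 and 4, against 0.36 and 0.41 on replicates 1 and 3.

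**Figure D5:**
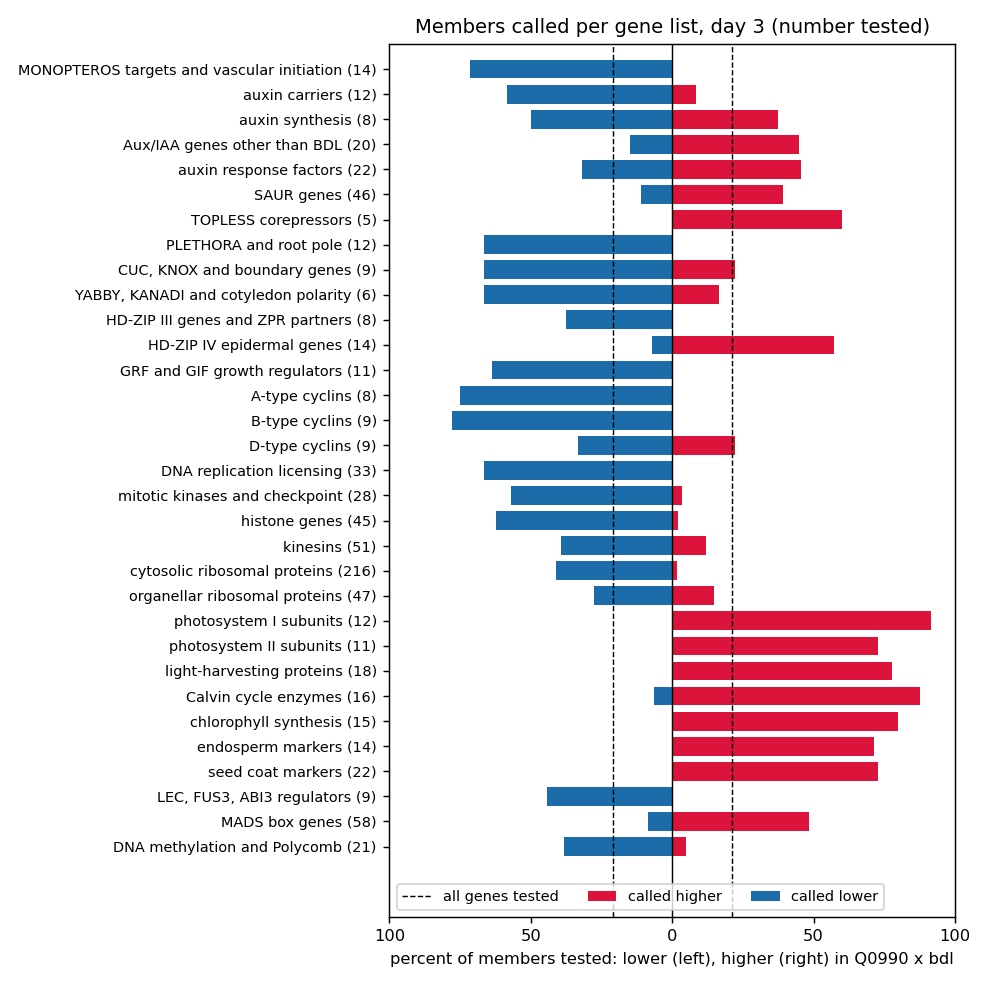
Bars give the percent of tested members of each list (y axis, with the number tested) that were called higher (to the right) or lower (to the left) in Q0990 x bdl on day 3, and dashed lines mark the same over all genes, 21.1% higher and 21% lower. Vascular, root pole, cyclin and replication lists reach to the left, and photosynthesis, endosperm and seed coat lists to the right.

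Of 9 seed maturation regulators 4 were called lower and none higher, while most storage genes were higher. ABI3, a B3 domain activator of storage protein genes, had 408, 751, 526 and 575 in Q0990 x bdl, against 952, 1619, 1082 and 1218 in Q0990 x Col-0 (log2 -1.04 ± 0.0655). FUS3, a related activator, was at -0.49, -0.52, -0.54 and -0.55 on replicates 1 to 4, and LEC1 at -0.27, which did not pass without replicate 1 or 3 (limma adjusted p = 0.0590 and 0.0625). ABI4 (-0.34) did not pass without replicate 2 or 4 (limma adjusted p = 0.0536 and 0.0869), and LEC2 did not pass (-0.14, adjusted p = 0.128). Of 6 storage genes 4 were higher and none lower (median 0.68), as above. Oil body genes (3 higher and 1 lower of 9, or none lower without replicate 2 or 4), fatty acid synthesis genes (1 higher and 3 lower of 20) and LEA genes (3 higher and 4 lower of 15, or 2 lower without replicate 2) had medians between -0.08 and 0.00. In these lists 20% to 46.7% of the tested members were called, against 42.1% of all genes.

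Genes of the endosperm and seed coat were higher in Q0990 x bdl. Of 14 endosperm genes 10 were higher and none lower (1 without replicate 2 or 3), with a median of 0.48. MEA, a maternally expressed Polycomb gene, had 491, 949.8, 911 and 900.5 in Q0990 x bdl, against 247, 385, 412 and 381 in Q0990 x Col-0 (log2 1.07 ± 0.155). AGL36, a MADS box gene of the same tissue, had 577, 622, 1118 and 1055 in Q0990 x bdl, against 262, 291, 658 and 520.1 in Q0990 x Col-0. AGL38 was at 0.91 ± 0.233 and PHE1 at 0.85 ± 0.149. Of 22 seed coat genes 16 were higher and none lower (median 0.47). F3H, a flavonoid hydroxylase gene, had 2342, 5970, 4868 and 6967 in Q0990 x bdl, against 1526, 3226, 3045 and 4113 in Q0990 x Col-0. DFR, of a later step, was at 0.61 and 0.73 on replicates 1 and 3 and at 1.13 and 1.15 on replicates 2 and 4. The pump gene AHA10 averaged 0.93 ± 0.902, of which replicate 2 alone stood at 2.28. Without it the ratio was 0.48, and without replicate 4 the call was lost (limma adjusted p = 0.0536).

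Among 58 MADS box genes, 28 (48.3%) were higher and 5 lower (median 0.20). AGL23 was at 1.12 ± 0.131, and FLC, the flowering repressor, at -0.67 ± 0.192. Of 21 DNA methylation and Polycomb genes 8 were lower and 1 higher (2 without replicate 1). VIM1, which binds methylated DNA, was at -0.72 ± 0.176, CHR1, a chromatin remodelling gene, at -0.67 ± 0.194 and AGO4, of the small RNA pathway, at -0.56 ± 0.0458. The member that rose was MEA. In the Dof family 8 of 27 (29.6%) were lower and 4 (14.8%) higher, against 21% and 21.1% of all genes. DOF4.5 and DOF4.3, which have near codes on chromosome 4, rose by 1.65 ± 0.193 and 1.497 ± 0.137, while BRCA1, whose code lies between them, was at -0.43. AT5G66940 of the same family was at -0.83 ± 0.114.

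Cell wall and surface genes were called in both directions. In the families counted here 36.4% (pectin enzymes and inhibitors) to 59.1% (xyloglucan-modifying enzymes) of the tested members were called, against 42.1% of all genes (21.1% higher and 21% lower). The shares of the lipid transfer protein family, 26.7% higher and 17.3% lower, lay near those of all genes. Of its 75 genes 20 were higher and 13 lower (8 without replicate 2 and 7 without replicate 3), with AT1G43665 at 1.38 ± 0.0482, AT5G38195 at 1.36 ± 0.0717 and LTPG1, which exports surface lipids, at -0.94 ± 0.112. Of 22 xyloglucan-modifying enzyme genes 9 were higher (5 without replicate 3) and 4 lower, and the largest changes were falls, of XTH4 (-1.14 ± 0.177) and XTH9 (-0.98 ± 0.0668). The expansin gene EXPA8, above the blank spots on 1 of 4 arrays in Q0990 x Col-0, was at 1.03 ± 0.260 and EXPA15 at -0.94 ± 0.221, in a family with 7 of 27 higher (4 without replicate 4) and 8 lower. Among 88 pectin methylesterase and inhibitor genes 22 were higher and 10 lower (6 without replicate 2), led by the inhibitor family gene AT5G50050 (1.23 ± 0.0799) and the esterase family gene AT1G02810 (-1.17 ± 0.102). The cellulose synthase gene CESA2 was at 0.94 ± 0.128. The wax synthesis gene CER1 was at 0.93 ± 0.161, and PRX52, a peroxidase gene, at -1.11 ± 0.237.

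Among transport and hormone genes outside auxin and cytokinin, between 36.8% (nitrogen transporters) and 55.6% (gibberellin genes) of the tested members of each list were called, against 42.1% of all genes. Of 68 nitrogen transporter genes 11 were higher (6 without replicate 2 or 3) and 14 lower. SWEET11, a sucrose exporter gene, had 88.5, 102, 149 and 143 in Q0990 x bdl, against 39.99, 5.74, 40.9 and 32.6 in Q0990 x Col-0, where 1 of 4 arrays exceeded the blank spots (log2 1.10 ± 0.331). SWEET9, another exporter gene, was at -0.80 ± 0.232, in a list of 29 sugar transporter genes with 8 higher (5 without replicate 1 or 4) and 6 lower. Among 27 aquaporin genes 8 were higher, with TIP2 at 1.04 ± 0.115, and 6 lower (3 without replicate 2 or 4), with PIP3 at -0.95 ± 0.154. Abscisic acid genes were higher in 8 of 21 cases and lower in 2 (1 without replicate 1, 2 or 3), with the synthesis genes NCED6 at 0.81 ± 0.124 and AAO3 at 0.61 ± 0.0251. Gibberellin genes were higher in 7 and lower in 3 of 18 (1 without replicate 3), and the brassinosteroid genes BAS1, an inactivating enzyme gene, and BES1, a response factor gene, were at -0.70 and -0.46.

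The bdl effect on day 3 differed from that on day 6 for most of the genes that changed most. The difference between the days was called for 41.2% of the 18840 genes measured on both days, and for 26 of the 32 genes made up of BDL, MP and the 15 largest falls and rises. Because 30 of them were chosen by their day 3 ratio, which enters the difference, that count is a description. WOX5 was at 0.25 on day 6, against -1.98 on day 3, and SESA3 at 0.50 against 3.82. For ASL5 (-2.36 on day 6), TMO7 (-1.95), AT3G17680 (-1.62), BDL (1.02) and MP (-0.31) the test of the difference did not pass, with adjusted p from 0.141 to 0.736. AT4G22440 was not measured on day 6.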

How the data were processed

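The deposited tables give, per the file headers, 1 linear intensity per spot for each cross. The labels' protocols name amplified RNA and coupled dyes. The scanner output was lost, per the series text, and image software and background correction are not given in the sources used here. The authors' deposited series table of log2 ratios holds the ratios of the same spots.

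The members and gene lists were chosen with earlier results of these data known. Reporters above the 95th percentile of blank spots in at least 4 of the 16 signals of the series were kept. After adding 50, ratios were normalised by loess (span 0.3, 4 iterations) in limma 3.58.1 (R 4.3.3) and averaged over spots and reporters of a gene. limma was fitted to all 8 arrays with day effects and the labelled dye, tested genes had values on at least 3 day 3 arrays, and p-values were adjusted by Benjamini-Hochberg. The script was tested on simulated data.

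Genes named are BDL and MP, the 15 largest falls and rises among called genes with 1 sign on all arrays and the brighter cross above blank spots on all 4, the largest called changes of each list, tissue markers, and measured members of the MP list. One gene is not reported here. A few others (LEC2, TPL and the genes between named codes) were added after their values were seen. Gene symbols come from a RefSeq table that holds 99.4% of the genes kept. Intensities above the 16-bit limit, present on 103 to 160 spots an array, were used as given. Alternatives changed the offset, background, normalisation, filters, dye term, fit and replicates.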

Additional observations from a re-analysis of the deposited data

Results flagged for a closer look

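On some arrays a named gene stood apart from the other 3, with a gap to the nearest array that took up most of the range over all 4 and passed Dixon's 95% critical value. This held for 15 of 305 named genes, and chance gives about 1 in 20. The log2 ratios of Q0990 x bdl to Q0990 x Col-0 concerned were those of AT1G16220 (-3.04), TCP14 (-1.07) and AT5G50050 (1.35) on replicate 4. On replicate 2 they were those of PHB (-0.37), PLT1 (0.089), ACP4 (0.36), AHA10 (2.28) and PIP2B (0.74). On replicate 3 they were those of AT5G53590 (0.68), RPA32B (-0.46), AGL36 (0.72) and CYP71A21 (1.69), and on replicate 1 those of PHV (-0.65), LHCA4 (0.29) and JAZ6 (0.40). AT1G16220, AHA10 and CYP71A21 owe much of their mean to that 1 array, and PLT1 had its sign turned there.

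The effect of the cross, tested as day 6 minus day 3 on the log2 scale (limma), differed for 26 of the 32 genes checked. WOX5, lower on day 3, was higher on day 6, a difference of 2.23. The other falls of day 3 that differed were smaller or absent on day 6, by 1.77 for AT1G29270, 1.54 for ZW9, 1.41 for AT5G47440, 1.32 for AT1G16220, 1.24 for GRF5, 1.20 for RGF8, 1.12 for AT1G05577, 1.05 for AT3G48970, 0.84 for SAG13, 0.83 for LOG7 and 0.76 for PUB25. Rises of day 3 were smaller or turned on day 6, by -4.002 for AT1G53285, -3.58 for AT1G43667, -3.39 for AT5G05030, -3.31 for SESA3, -3.21 for AT1G52695, -3.18 for AT1G62000, -2.96 for AT1G62080, -2.95 for AT1G62210, -2.55 for AT3G17265, -2.21 for MEE56, -2.14 for AT1G62060, -2.06 for AT1G62220, -1.86 for PER64 and -1.67 for SESA2. Most of these genes were chosen by their day 3 ratio.

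Of 75 microRNA reporters, which entered no comparison, 39 had values and 22 exceeded the blank spots in at least 4 of the 8 day 3 signals.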

How the results depend on the processing

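The number of genes called depended on how the spread was estimated. It was 8036 with all arrays in 1 fit, 5244 (2667 higher and 2577 lower) with the day 3 arrays fitted alone and, in alternatives chosen after seeing the data, 4635 (2402 higher and 2233 lower) with the array pairs averaged, but 9848 with a term for the pairs. With an offset of 200 the count at 1.5-fold or more was 700, against 1257, since a larger offset shrinks ratios. With replicates 1 and 3 only, also chosen after seeing the data, 8 light-harvesting genes were called higher, and with replicates 2 and 4 only 12, against 14. CRU3 reversed to -0.072 (adjusted p = 0.267) where reporters had to exceed the blank spots in all 8 day 3 signals. No other called direction among the named genes reversed in the settings that still held the gene.

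Leaving out each replicate in turn gave 6500 to 6976 genes called, 3179 to 3582 higher, 3240 to 3410 lower and 1200 to 1433 at 1.5-fold or more. It gave 10 to 11 MP targets lower, 20 to 21 replication genes lower, 12 to 13 light-harvesting genes, 13 to 15 seed coat genes and 7 to 10 endosperm genes higher, and a BDL ratio of 0.83 to 0.91. Same-numbered arrays of both days did not deviate together (r from -0.259 to -0.146), so the numbers are not taken to pair samples. Day 3 replicates 1 and 3 did deviate with day 6 replicates 2 and 4 (r from 0.160 to 0.291). Day 3 replicates 2 and 4 deviated with day 6 replicates 1 and 3 (r from 0.165 to 0.194). All other combinations were negative, which is partly forced because the deviations of each day cancel by construction. What this split shares across the days was not tested. With a replicate block 6704 genes were called (3385 higher and 3319 lower), BDL stood at 0.86 (limma adjusted p = 0.000688), and 26 of 32 genes differed between days. Of 6036 checks on named genes 167 lost the call and 2 gained one.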

Other observations

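Stress, peptide and regulator families that the account above leaves out had 34.8% to 45.9% of members called, against 42.1% of all genes. Of 41 WRKY genes 10 were lower and 5 higher (3 without replicate 2 or 4). WRKY40, known from defence responses, was at -0.96 ± 0.238 but exceeded the blank spots on 1 of 4 arrays in Q0990 x bdl, and MINI3, a WRKY gene of the endosperm, was at 0.71 ± 0.335 and was not called without replicate 4 (limma adjusted p = 0.0513). Of 56 NAC genes 12 were higher and 12 lower, and NAC047 fell most beside the CUC genes named above (-1.18, -1.78, -1.16 and -1.29 on replicates 1 to 4). Of 74 MYB genes 21 were higher and 13 lower, and of 16 TCP genes 4 were higher and 2 lower.

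Among 23 CLE, RGF and EPF peptide genes 6 were lower and 2 higher. RGF1, a root growth factor gene like RGF8, was at -0.82 ± 0.268 and CLE17 at -0.81 ± 0.266. Of 11 defensin-like and cysteine-rich peptide genes 4 were higher and none lower, led by PDF2.1 (0.77 ± 0.304). Cytochrome P450 genes had 24 of 126 higher and 21 lower, with CYP71B35 at 1.25 ± 0.139. Heat shock protein genes had 8 of 37 higher and 5 lower (3 without replicate 1 or 2). The jasmonate repressor gene JAZ6 was at 0.77 ± 0.249, and EIL1, a transcription factor gene of ethylene signalling, at -0.62 ± 0.151.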
